A study of Mus musculus with 16 samples.

Results

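The cells described here are the limb bud mesoderm of mouse chimeras at mid-gestation. They are the cells that carried a limb label other than ectoderm in the authors' table of cells, with doublet calls left out. Of 37841 cells kept in 16 libraries, 1769 cells (4.67%) met that rule. The label Limb mesoderm held 1767 of them, 802 from the *Stat3* null gate and 965 from the wild-type (WT) gate. The label Forelimb held 2 cells, 1 null and 1 WT, both at E9.5, and no value is given for it. All values below are from Limb mesoderm.

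Chimeras were made by injecting *Stat3* null embryonic stem cells (ESCs), marked by a CAG-driven H2B-tdTomato transgene, into WT CD1 blastocysts. The null allele carries a neomycin resistance cassette in place of some coding exons. Whole embryos of 3 stages (E7.5, E8.5, E9.5) were dissociated. A gate on tdTomato parted null cells, which carry it, from WT host cells, which do not, and each gate went into droplet-based 3′ single-cell RNA-seq. Null and WT cells therefore came from the same embryos, and donor ESC origin and genotype cannot be told apart, because no WT ESCs were injected. At E8.5 each gate gave 2 libraries from pooled embryos. At E9.5 each gave 4 libraries, while the study's methods name fewer embryos, so p-values there measure the spread between libraries, which may be partly technical. Letters from A to D only name the libraries of a group.

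Limb buds arise as paired bulges of lateral plate mesoderm. The T-box factor *Tbx5* starts the forelimb field, and *Pitx1*, *Isl1* and *Tbx4* act in the hindlimb field. Both fields then express *Fgf10*, the signal to the overlying ectoderm that sustains outgrowth, and the homeobox gene *Prrx1* marks the undifferentiated mesenchyme. Posterior *Hoxa* and *Hoxd* genes are switched on in sequence as the bud grows. STAT3 is the transcription factor activated by gp130 cytokine receptors and JAK kinases, and it binds palindromes of the form TTCNNNGAA.

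Shown first are promoters with that palindrome (in capitals) of the called genes that hold it and of *Socs3*, a gene by which STAT3 activity is commonly read. The palindrome was searched within 250 bases before to 50 bases after a RefSeq start site. *Socs3* encodes a feedback inhibitor of this pathway. *Zdbf2*, an imprinted gene, was higher in null than in WT limb cells, and *Eef2k*, which encodes a kinase that slows translation, was lower at E8.5. The stretches are on GRCm38.p6, read 5′ to 3′ on the strand of the gene. They lie at chr11:117969492-117969540 (minus strand) for *Socs3*, chr1:63200108-63200144 (plus strand) for *Zdbf2* and chr7:120843376-120843424 (plus strand) for *Eef2k*. The *Zdbf2* stretch belongs to a start site upstream of the gene span in the annotation used here.
Socs3: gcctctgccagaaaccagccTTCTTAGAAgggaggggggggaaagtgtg
Zdbf2: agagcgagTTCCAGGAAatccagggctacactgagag
Eef2k: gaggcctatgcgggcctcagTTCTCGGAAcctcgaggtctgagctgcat
The palindrome reads the same on both strands apart from its 3 inner bases, so 1 scan covers both. It occurred in 2582 of 27025 genes with a RefSeq window (9.55%). Of the 14 genes called between genotypes at E9.5, 11 had a window and 1 of these, *Zdbf2*, held it. Of the genes called at E8.5 with a window, 2 of 11 held it, *Eef2k* and *Zdbf2*. Among 12 STAT3 feedback and target genes with a window it was found in *Cish* and *Socs3*, and among 15 limb field genes in none. A match is only a match of letters, and its part in the genotype differences was not tested.

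Depth allowed abundant genes to be followed in each library. The limb cells of a library held between 576024 and 14091722 unique molecular identifiers (UMIs), with a median of 18604 to 61611 per cell. Mitochondrial UMIs took a median of 0.95% to 1.74% and the label score had a median of 0.64 to 0.88. The smallest library, E8.5 null B, had 17 limb cells and the lowest score. Of its limb cells 64.7% had a tdTomato UMI, against 90.8% in E8.5 null A and 98.9% to 100% in the E9.5 null libraries. Another 57 WT-gate limb cells with a tdTomato UMI had been left out, 48 of them from E9.5 WT D. Of the 1769 cells, 65 shared a barcode with a cell of another library, and 4 shared it with another limb cell.

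The labelled cells carried limb mesoderm genes. Levels are UMI counts summed over the limb cells of a library, divided by all UMIs of those cells and scaled to a total of 1000000 (CPM). *Tbx5* (chr5:119832668-119885219, plus strand, GRCm38) was at 61.2 and 41.8 CPM in the E8.5 WT libraries and at 53.0 and 34.7 CPM in the E8.5 null libraries. At E9.5 it was at 26.8, 35.3, 34.7 and 24.3 CPM in WT and at 31.7, 32.9, 36.6 and 34.3 CPM in null limb cells. The genotypes overlapped at both stages, and the E8.5 WT values lay above those of E9.5 WT. Over 56 labels with at least 50 cells at E8.5 the limb ranked 4 for *Tbx5*, after 2 cardiomyocyte labels and epicardium, all of which use the gene in the heart.

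*Prrx1* (chr1:163245119-163313710, minus strand) ranked 2 at both stages, below frontonasal mesenchyme at E8.5 and below branchial arch neural crest at E9.5, both face mesenchymes. Its levels were 180 and 196 CPM in E8.5 WT, 203 and 151 CPM in E8.5 null, 383, 373, 358 and 276 CPM in E9.5 WT, and 391, 336, 343 and 304 CPM in E9.5 null limb cells. A *Prrx1* UMI was found in 97.1% of E9.5 WT limb cells, against 13.4% of 380 E9.5 WT cells of the erythroid labels, which should lack it. *Fgf10* (chr13:118669791-118792115, plus strand) was less particular to these cells, with rank 5 of 56 labels at E8.5 and 10 of 60 at E9.5. It was at 17.7 and 18.3 CPM in E8.5 WT, 15.1 and 10.4 CPM in E8.5 null, 20.4, 18.4, 16.9 and 16.8 CPM in E9.5 WT, and 15.5, 19, 11.3 and 16.9 CPM in E9.5 null limb cells. The LIM-homeobox gene *Lhx9* and *Hoxd9* ranked 1 of 60 labels at E9.5, but 45 and 12 of 56 at E8.5. *Tbx4* ranked 28 at E8.5 and 3 at E9.5, *Pitx1* 19 and 6, and the limb field gene *Hand2* 9 and 8. *Tbx5* ranked 5 at E9.5. These ranks describe the label, which was itself transferred on expression.

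At E8.5 the labelled cells were high in *Lhx1*, a LIM-homeobox gene known from intermediate mesoderm, the neighbouring tissue that forms the kidney. By ratio to the other cells of the WT libraries, the leading genes were *Lhx1*, *Gal*, *Lhx1os* and *Tbx5*. *Lhx1* was at 71.2 and 183 CPM in WT and at 89.3 and 245 CPM in null limb cells, so that one library of each genotype was high. The 6 intermediate mesoderm markers summed to 76.1 and 188 CPM in E8.5 WT and 100 and 288 CPM in E8.5 null limb cells, against 18.4 to 23.4 CPM in other cells, but most of each limb sum was *Lhx1*. Without it the other 5 summed to 4.83 and 5.23 CPM in WT limb cells, below the 14.3 to 15.2 CPM of other WT cells. In null limb cells they summed to 10.9 CPM in null A and 43.4 CPM in null B, against 14.5 to 15.2 CPM in other null cells. *Pax2* and *Pax8*, kidney lineage regulators, were at 15.6 and 19.1 CPM in null B, and *Sim1* was at 0 in both null libraries. At E9.5 the 6 markers summed to 13.0 to 22.4 CPM in limb cells, below the 30.8 to 48.5 CPM of other cells. The part of these markers in the E8.5 values was not tested.

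Limb cells were a larger share of every E9.5 library than of any E8.5 library, and the share did not differ detectably between genotypes. At E7.5, 1 null cell carried the label and 0 of 2506 WT cells did, which allows a share of up to 0.120%. At E8.5 the share was 2.71% and 2.12% in the WT libraries and 2.27% and 1.48% in the null libraries. The means were 2.41% ± 0.420 in WT and 1.88% ± 0.556 in null libraries (SD, n = 2 each). At E9.5 it was 5.81%, 5.26%, 6.36% and 9.51% in WT and 8.34%, 6.51%, 5.96% and 5.43% in null libraries. The groups overlapped at both stages. The E9.5 means were 6.73% ± 1.90 and 6.56% ± 1.27 (SD, n = 4 each). In edgeR's quasi-likelihood test over all labels, the log2 fold change of null over WT was -0.36 ± 0.42 (SE) at E8.5 (95% interval -1.40 to 0.69, Benjamini-Hochberg adjusted p = 0.989). At E9.5 it was -0.03 ± 0.38 (interval -0.81 to 0.75, adjusted p = 0.996). Of 71 labels tested at E9.5, 1.41% passed, and none (0) of 68 did at E8.5. The intervals still admit a loss or gain of over 1.5-fold, and leaving out null D, WT D or using DESeq2 turned the sign of the E9.5 value.

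**Figure D1:**
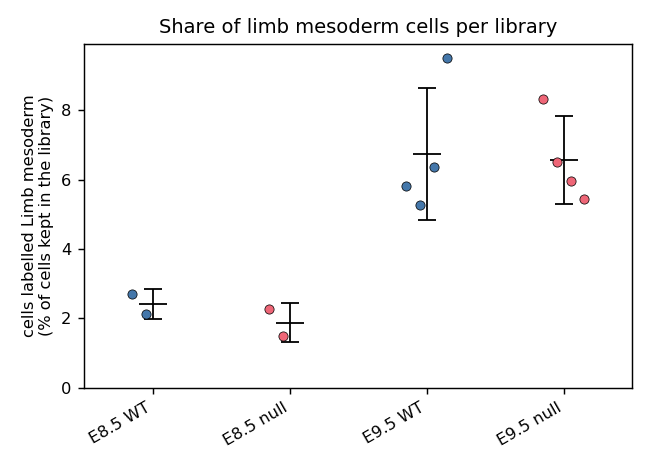
Share of cells labelled Limb mesoderm (% of the cells kept in a library) at E8.5 and E9.5 for WT and *Stat3* null gates, with each point a library and the bar and whiskers the mean and SD. All E9.5 libraries (5.26% to 9.51%) lie above all E8.5 libraries (1.48% to 2.71%), and WT and null points overlap at each stage.

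The label and the atlas stage, the authors' transferred staging in days, both came from mapping to the same atlas. Within a label the stage is thus limited to ages at which the atlas holds such cells. Cells that lag could carry another label, so this comparison cannot decide whether null cells keep pace. Among the labelled limb cells, the atlas stage of the nearest neighbours did not differ between genotypes beyond the spread of libraries. Averaged over limb cells it was 8.97 ± 0.0583 in WT and 8.96 ± 0.0253 in null libraries at E8.5 (SD, n = 2 each). At E9.5 it was 9.15 ± 0.0525 in WT and 9.16 ± 0.0282 in null libraries (SD, n = 4 each). The exact two-sided permutation p was 1 at E8.5, where 0.333 is the smallest possible, and 0.8 at E9.5, where 0.0286 is.

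Between E8.5 and E9.5 the WT limb cells gained posterior *Hox* genes and hindlimb genes. Calls, at an adjusted p under 0.05 and a fold of more than 1 on the log2 scale either way, were made for 423 of 10596 genes (3.99%), 288 of them higher (2.72%) and 135 lower (1.27%) at E9.5. In 419 of them (3.95% of all genes) the libraries of the stages did not overlap, but over all genes 36.6% were higher and 9.95% lower at E9.5 without overlap. Without the fold threshold 608 genes were higher (5.74%) and 804 lower (7.59%). Only 2 libraries stand at E8.5, and without WT A or WT B of that stage the count was 229 or 195, of which 152 or 166 were among the 423. Of 66 named genes with an adjusted p under 0.05, 30 kept it in all alternatives that gave one. Stage and collection cannot be told apart. Levels are sums over all limb cells of a library, and whether genes changed within cells or with the mix of cells was not tested.

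All 10 *Hoxa* and *Hoxd* genes of the limb list were called higher, with a median log2 fold change of 6.81 (4.49 with genes at 0 held at the bound of 3 UMIs in the E8.5 group), against 0.02 over all genes tested. *Hoxd11*, which patterns the middle of the limb, was at 0.403 and 0 CPM in the E8.5 WT libraries and at 93.3, 68.8, 62.5 and 52.9 CPM at E9.5. *Hoxd13*, a gene of the later hand and foot plate, was at 0.403 and 0 CPM at E8.5 and at 17.7, 18.6, 16.6 and 15.5 CPM at E9.5. Only 1 *Hoxd11* UMI and 1 *Hoxd13* UMI were seen in E8.5 WT limb cells. The ratio of pooled levels was 266-fold for *Hoxd11* (exact counting interval 47.6 to 10499) and 66.9-fold for *Hoxd13* (12.0 to 2649).

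*Hoxd10* and *Hoxa11* had no UMI at E8.5 and were at least 51.1-fold and 46.4-fold higher at E9.5. *Hoxd9*, active earlier in the series, rose from 8.86 and 11.1 CPM to 120, 137, 116 and 104 CPM (log2 fold change 3.45 ± 0.18 SE, adjusted p = 6.63e-09). The E9.5 null libraries, which are no part of this test, held *Hoxd9* at 127, 145, 88.5 and 86.6 CPM. Of the list, *Hoxa10*, *Hoxa11* and *Hoxd12* lost their call when either E8.5 WT library was left out (adjusted p up to 0.114, 0.128 and 0.200), and the other 7 kept an adjusted p under 0.05 in all 9 alternatives.

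Among genes that set forelimb and hindlimb identity, 6 of 8 tested were called higher at E9.5 and the forelimb gene *Tbx5* was lower. At equal depth, the WT share of cells with *Tbx5* only was 35.1% at E8.5 and 21.5% at E9.5. That with *Tbx4* or *Pitx1* only was 3.09% and 42.0% (both described below). *Pitx1*, the hindlimb selector, was at 4.83 and 9.15 CPM in E8.5 WT and at 170, 165, 131 and 194 CPM in E9.5 WT limb cells (log2 fold change 4.50 ± 0.31 SE, adjusted p = 8.13e-05). *Tbx4* rose from 0.403 and 0.654 CPM to 16.3, 15.7, 10.9 and 17.6 CPM, a 31.4-fold ratio (8.66 to 260) that rests on few UMIs at E8.5. *Isl1*, upstream of the hindlimb field, rose from 4.83 and 5.88 CPM to 54.2, 55.4, 40.9 and 62.6 CPM. *Hoxc10* rose 118-fold (32.7 to 979), and *Hoxc9* and *Hoxc8* by 2.29 ± 0.20 and 1.21 ± 0.13 (SE) on the log2 scale. *Tbx5* changed by -0.99 ± 0.20 (SE, adjusted p = 0.00744), short of the fold threshold, and without E8.5 WT A its adjusted p was 0.210.

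Of 19 limb field and outgrowth genes tested, 3 were called higher, *Lhx9*, *Lhx2* and *Tbx4*. *Lhx2* and *Lhx9* encode LIM-homeobox factors that maintain outgrowth. *Lhx9* had no UMI in any E8.5 limb library, null or WT, and was at 99.4, 121, 90.0 and 65.1 CPM in E9.5 WT, at least 115-fold higher. Its adjusted p of 0.0181 rose to at most 0.0658 without E8.5 WT A, E9.5 WT A or E9.5 WT C. *Lhx2* rose from 1.61 and 1.31 CPM to 89.5, 108, 84.2 and 61.1 CPM (log2 fold change 5.65 ± 0.57 SE, adjusted p = 0.00175). *Prrx1* had a log2 fold change of 0.73 ± 0.12 (SE, adjusted p = 0.00357), below the fold threshold, and lost significance without either E8.5 WT library (adjusted p up to 0.0899). *Fgf10* (-0.15 ± 0.18, adjusted p = 0.649), *Hand2* (0.20 ± 0.20, adjusted p = 0.596) and *Twist1* (-0.03 ± 0.06, adjusted p = 0.818) did not pass.

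Counts in the signalling lists stand beside 2.72% of all genes called higher and 1.27% called lower. In the FGF list 4 of 13 genes were called higher and 0 lower, all feedback inhibitors: *Spry4*, *Il17rd*, *Dusp6* and *Spry1*. Of these, *Il17rd* kept an adjusted p under 0.05 in all 9 alternatives, and *Spry4* and *Spry1* reached 0.0839 and 0.151. *Dusp6*, the ERK phosphatase, was at 25 and 20.3 CPM in E8.5 WT and at 68.6, 70.7, 64.1 and 47.1 CPM in E9.5 WT limb cells, with an adjusted p of 0.00242 that rose to at most 0.0720 without an E8.5 WT library. The retinoic acid list had 2 of 11 genes called lower and 0 higher, *Rdh10*, an enzyme of retinoic acid synthesis, and *Cyp26a1*, which degrades it. *Rdh10* kept an adjusted p under 0.05 in all 9 alternatives, while that of *Cyp26a1* reached 0.200. *Rdh10* was at 45.9 and 53.0 CPM at E8.5 and at 24.0, 22.8, 30.2 and 24.6 CPM at E9.5. *Aldh1a2*, the last enzyme of synthesis, changed by -0.99 ± 0.16 (SE, adjusted p = 0.000931), below the fold threshold.

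In the anterior-posterior list 7 of 15 genes were called higher and 0 lower. They were 5 *Hoxd* genes, the anterior homeobox gene *Alx4*, which rose by 2.38 ± 0.32 (SE) on the log2 scale, and *Gli1*, a hedgehog target, which rose by 1.44 ± 0.33 (SE) and lost its call without E8.5 WT A. *Shh* itself was not tested, with 0 UMIs in E8.5 WT and 0.887 ± 0.376 CPM (SD, n = 4) in E9.5 WT limb cells, where 3.19% of cells had a UMI against 1.84% of erythroid cells. In the BMP list 2 of 18 genes were called lower, *Bmp5* and *Nog*. In the WNT list 1 of 17 was called lower, *Sp5*, and 1 higher, *Lgr4*. *Nog* and *Lgr4* lost their calls with DESeq2 and in other alternatives (4 and 0 of 9 kept). In the glycolysis list 14 of 15 genes were lower at an adjusted p under 0.05 (7.59% of all genes tested were), with a median log2 fold change of -0.50, and 3 passed the fold threshold, the glucose transporters *Slc2a1* and *Slc2a3* and the kinase gene *Pfkp*. *Slc2a1* was stable, and *Slc2a3* and *Pfkp* reached an adjusted p of 0.0783 and 0.516 without an E8.5 WT library. In the oxidative phosphorylation list 8 of 19 were lower in that sense, with a median of -0.14.

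Among the genes that fell most, *Lhx1* fell by 4.90 ± 0.50 (SE) and *Fgf9* by 4.80 ± 0.31 (SE) on the log2 scale, and both kept an adjusted p under 0.05 in all 9 alternatives. The log2 fold change of *Lhx1* was -5.48 without E8.5 WT A and -4.12 without E8.5 WT B, and that of *Fgf9* was -4.40 and -5.07. *Fgf9*, an epithelial and mesothelial growth factor gene, was at 36.6 and 22.9 CPM in E8.5 WT and at 0.571, 1.05, 1.72 and 1.34 CPM in E9.5 WT limb cells. *Lhx1* alone made up most of the E8.5 sum of the intermediate mesoderm list. The others were *Soat2*, *Grifin*, *Lhx1os*, *Pde1c*, *Unc45b* and *Gal*, of which *Soat2*, *Pde1c* and *Gal* reached an adjusted p of 0.211, 0.107 and 0.133. Among the genes that rose most outside the lists were *Hoxc11*, at least 11.3-fold higher, *Pou3f3* and its neighbouring noncoding gene *Pantr1*, the last 2 with an adjusted p of up to 0.0674 and 0.105. *Tbx18*, used here as a somite marker, was at least 10.4-fold higher.

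**Figure D2:**
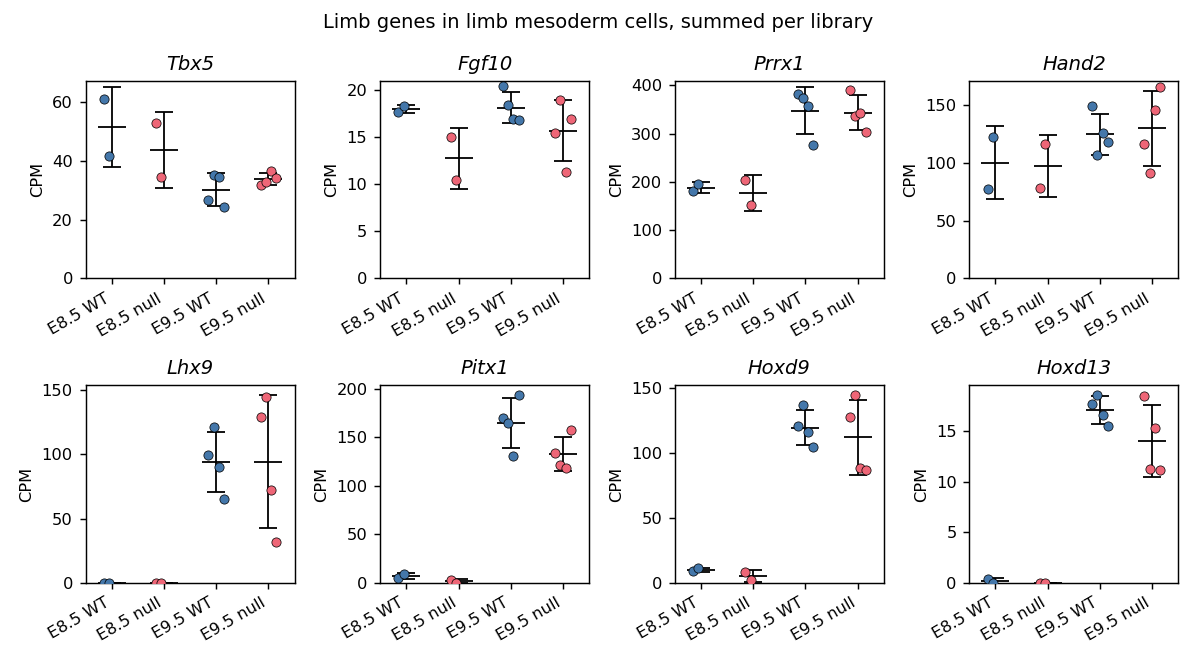
Levels of 8 limb genes (CPM of UMIs summed over limb mesoderm cells) by stage and genotype, with each point a library and the bar and whiskers the mean and SD. *Lhx9*, *Pitx1*, *Hoxd9* and *Hoxd13* lie near 0 at E8.5 and high at E9.5 in both genotypes, and WT and null points overlap for all 8 genes at E9.5.

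Within the E9.5 limb cells, *Tbx5* and the pair *Tbx4* or *Pitx1* were mostly found in different cells. Each cell was thinned to 10000 UMIs so that cells were compared at equal depth, and no cell was lost. In WT libraries 21.5% ± 4.96 of cells had a *Tbx5* UMI and none of the other 2 genes, 42.0% ± 7.84 had *Tbx4* or *Pitx1* only, 1.48% ± 0.956 had both and 35.1% ± 4.28 had neither (SD, n = 4). The product of the shares would put 9.72% in both. In null libraries the shares were 21.5% ± 3.57, 34.2% ± 6.63, 0.644% ± 0.914 and 43.7% ± 5.90. The product there was 7.63%. Without thinning, both were seen in 7.91% of WT and 7.44% of null cells, against products of 18.9% and 18.5%. As a background, a *Pitx1* UMI was found in 6.05% and a *Tbx5* UMI in 1.32% of the 380 E9.5 WT cells with erythroid labels (median 22601 UMIs, against 36787 in WT limb cells).

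The genotypes did not differ beyond the spread of libraries in these shares. After thinning, the cells with neither were the widest apart, at 36.9% to 49.7% of null and 28.7% to 38.0% of WT cells. The ranges overlapped. The difference was 8.59 percentage points (exact two-sided permutation p = 0.0571, adjusted over the 4 shares 0.229). For *Tbx4* or *Pitx1* only the difference was -7.74 points (exact permutation p = 0.229, adjusted 0.343). At E8.5 35.1% of WT and 35.5% of null cells had *Tbx5* only, and *Tbx4* or *Pitx1* only was seen in 3.09% of WT and 1.72% of null cells. Without thinning, the E9.5 limb cells had a median of 43671 UMIs in null and 36787 in WT, and the order of the differences changed. *Tbx4* or *Pitx1* only then differed by -9.59 points and *Tbx5* only by 7.56 points (exact permutation p = 0.171 each). The latter was -0.01 points after thinning. Neither differed by 2.51 points (exact permutation p = 0.314).

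Several other limb genes differed between these sets of cells, taken on all UMIs, in the same direction in each of the 8 E9.5 libraries. In cells with *Tbx5* only, *Lhx9* was at 205 to 242 CPM in WT and 80.7 to 284 CPM in null libraries. In cells with *Tbx4* or *Pitx1* only it was at 1.10 to 19.97 CPM in WT and 0.563 to 20.6 CPM in null libraries. *Lhx2*, *Hoxd9*, *Hoxa9*, *Fgf10* and *Hoxb5* were also higher in the *Tbx5* cells in 8 of 8 libraries. *Fgf10* was there at 21.4 to 37.1 CPM in WT, against 7.13 to 14.7 CPM in the other set. *Isl1*, *Hoxc10*, *Hoxc9*, *Hoxc8*, *Hoxc11* and *Hoxd13* were higher in the *Tbx4* or *Pitx1* cells in 8 of 8 libraries. *Isl1* was at 79.9 to 137 CPM in those WT cells and at 1.05 to 3.11 CPM in the *Tbx5* cells. *Hoxc10* was at 108 to 133 CPM and 0 to 2.49 CPM. *Prrx1*, *Msx1*, *Twist1* and the limb field gene *Hand2* did not go one way in all 8. *Prrx1* and *Msx1* were higher in the *Tbx5* cells in 7 libraries each, *Twist1* in 2 and *Hand2* in 1. These are descriptions of cells chosen on 3 genes, with no test.

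**Figure D3:**
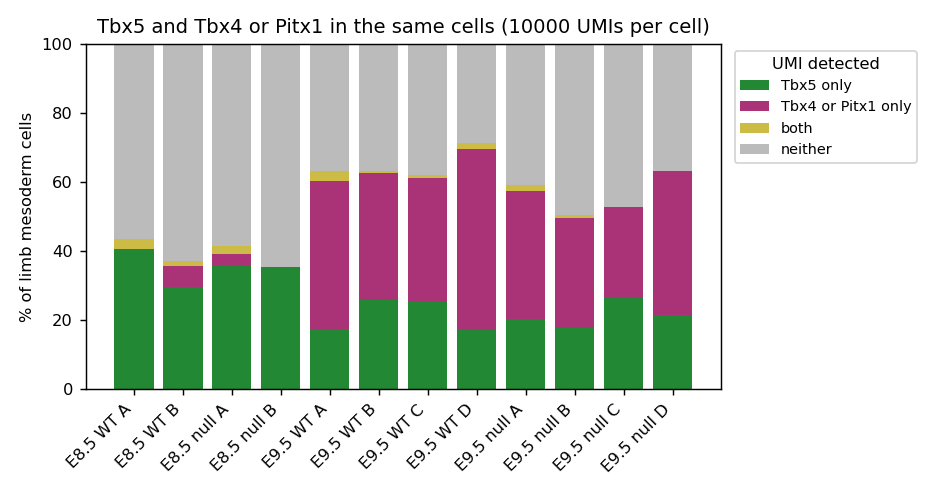
Share of limb mesoderm cells (%), each thinned to 10000 UMIs, with a UMI of *Tbx5* only, of *Tbx4* or *Pitx1* only, of both, or of neither, for each E8.5 and E9.5 library. The *Tbx4* or *Pitx1* share is at most 6.17% at E8.5 and between 26.3% and 52.7% at E9.5, and the share with both stays small.

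Among cells with the limb label, the limb programme showed no called difference between null and WT cells. The label was itself transferred on expression. At either stage, cells with a weakened programme could carry another label, and these comparisons would not hold them. At E9.5, 10584 genes were tested and 14 were called (0.132%), 6 higher (0.0567%) and 8 lower (0.0756%) in null cells. None (0) of the 19 limb field genes tested was called, and their median log2 fold change was 0.003, against 0.001 over all genes. Also with 0 called were 8 forelimb and hindlimb genes (median -0.25), 10 *Hoxa* and *Hoxd* genes (median -0.06), and 16 anterior-posterior, 11 retinoic acid, 13 FGF, 18 WNT, 17 BMP and 13 cartilage and matrix genes, with medians between -0.04 and 0.09 in these last 6 lists. With so few calls over all genes, 0 calls in a list says little about it. Of the forelimb and hindlimb genes, *Tbx5* (0.19) and *Hoxb5* (0.14) were higher in null cells. *Isl1* (-0.50), *Hoxc10* (-0.45), *Pitx1* (-0.31), *Tbx4* (-0.29), *Hoxc8* (-0.22) and *Hoxc9* (-0.15) were lower. Whether this split goes with the shares of cells given above was not tested. At an unadjusted p under 0.05 there were 766 genes (7.24%), among them 2 limb field genes (*Sall1* and *Sall4*), 2 forelimb and hindlimb genes (*Pitx1* and *Hoxc8*) and 1 of the *Hoxa* and *Hoxd* genes (*Hoxa13*), all lower in null cells. Of the other 6 lists, *Fzd2* (WNT receptor) and *Col1a1* (collagen) were higher in that sense, *Lum* (matrix) and *Crabp1* (retinoic acid binding) were lower, and the anterior-posterior, FGF and BMP lists had 0. *Tbx5* differed by 0.19 ± 0.12 (SE, adjusted p = 0.816), *Fgf10* by -0.19 ± 0.13 (adjusted p = 0.861) and *Prrx1* by 0.00 ± 0.10 (adjusted p = 0.997) on the log2 scale. A p that misses the threshold does not show that the levels are equal, and *Lhx9* had an SE of 0.46, with null libraries from 31.5 to 145 CPM.

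The zinc finger genes *Sall1* and *Sall4*, which act in limb outgrowth, were the 2 of 19 limb field genes whose E9.5 libraries did not overlap, both lower in null cells. Over all genes 2.39% were lower without overlap and 1.83% higher. *Sall4* was at 34.9, 38.1, 32.2 and 38.4 CPM in null and at 42.2, 44.9, 46.6 and 42.1 CPM in WT libraries (log2 fold change -0.28 ± 0.08 SE, adjusted p = 0.309). *Sall1* was at 11, 10.4, 11 and 11.6 CPM in null and at 13.6, 14.8, 13.4 and 14.9 CPM in WT libraries (-0.37 ± 0.11, adjusted p = 0.364). *Hoxa13*, the terminal gene of its cluster, did not overlap either, at 4.04, 2.24, 3.11 and 4.50 CPM in null and at 5.85, 9.20, 4.69 and 7.27 CPM in WT libraries (-0.94 ± 0.24, adjusted p = 0.185). None of the 3 passed the test.

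*Stat3* itself (chr11:100885098-100939540, minus strand) was lower but present in null limb cells at E9.5. It was at 1.56, 2.24, 2.01 and 1.71 CPM in null and at 3.99, 5.64, 4.22 and 3.79 CPM in WT libraries, which did not overlap. The log2 fold change was -1.20 ± 0.25 (SE, adjusted p = 0.0377). The call was lost with DESeq2 and on leaving out any single library (adjusted p up to 0.176). At E8.5 it was too low to test, at 0.684 and 3.47 CPM in null and 2.42 and 1.96 CPM in WT libraries. Reads of this assay come from the 3′ end of transcripts, downstream of the replaced exons, so *Stat3* UMIs in null cells do not check the allele. A *Stat3* UMI was found in 14.4% of E9.5 WT limb cells, against 36.3% of E9.5 WT erythroid cells.

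Of STAT3 feedback and target genes, 0 of 14 tested were called at E9.5 (median log2 fold change -0.01) and 0 of 10 at E8.5 (0.02). Over all genes the called shares were 0.132% and 0.186%, so that 0 calls in these lists is near the background. *Socs3*, whose promoter is printed above, was at 8.52, 7.78, 8.04 and 7.07 CPM in null and at 8.42, 9.62, 9.06 and 7.05 CPM in WT libraries at E9.5. The libraries overlapped and the log2 fold change was -0.07 (adjusted p = 0.980). *Cish* differed by 0.40 (adjusted p = 0.929). At an unadjusted p under 0.05 the target list had 1 gene at E9.5, *Junb*, higher in null cells by 0.40 ± 0.16 (SE, unadjusted p = 0.0227, adjusted p = 0.575). Of 11 genes of the gp130, JAK and STAT pathway list tested at E9.5, *Stat3* was the called one. *Il6st*, which encodes gp130, was at 14.8, 13.8, 11.3 and 16.7 CPM in null and at 17.7, 17.3, 18.6 and 18.1 CPM in WT libraries, without overlap, and differed by -0.33 (adjusted p = 0.469). In WT cells between stages *Myc* (-1.09 ± 0.14 SE, adjusted p = 9.87e-05) and *Socs1* were the called members of the target list, both lower at E9.5, *Socs1* not stably.

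The largest genotype differences were in imprinted genes, expressed from 1 parental copy, and in genes outside the limb lists. *Grb10* (chr11:11930508-12038683, minus strand), an imprinted growth inhibitor, was at 4.75, 4.48, 4.57 and 12.2 CPM in E9.5 null and at 319, 335, 316 and 346 CPM in E9.5 WT libraries. The log2 fold change was -5.79 ± 0.24 (SE, adjusted p = 2.17e-05). *Igf2* (chr7:142650766-142666816, minus strand), an imprinted growth factor gene, was at 574, 532, 569 and 554 CPM in null and at 311, 314, 305 and 271 CPM in WT libraries. It differed by 0.91 (adjusted p = 1.45e-07), below the fold threshold. Its neighbour *H19*, a noncoding RNA, was at 10.3, 4.48, 4.20 and 154 CPM in null and at 746 to 830 CPM in WT libraries. The groups lay far apart, but the spread among null libraries left an adjusted p of 0.443.

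Of 18 imprinted genes tested at E9.5, 3 had an adjusted p under 0.05, *Grb10*, *Igf2* and *Impact*. Of all genes 0.491% had, and 0.293% were higher. *Impact* was higher in null cells by 0.67 (adjusted p = 0.000257). *Zdbf2* (chr1:63273265-63314576, plus strand), imprinted but not on that list, was at 129, 131, 113 and 120 CPM in null and at 53.8, 58.3, 65.5 and 55.4 CPM in WT libraries. It rose by 1.10 ± 0.07 (SE, adjusted p = 2.44e-07).

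*Cwc22* (chr2:77881159-77946375, minus strand), a splicing factor gene, had the smallest spread of the called genes. It was at 187, 166, 166 and 174 CPM in null and at 44.8, 43.1, 42.7 and 41.6 CPM in WT libraries, a log2 fold change of 2.03 ± 0.06 (SE, adjusted p = 4.70e-12). *Fam196b*, *Trhde* and *Arhgap8* were called higher from low levels, at most 6.46, 5.18 and 3.66 CPM in null libraries, and *Dph7* with an adjusted p of 0.0205. Called lower were *Akr1b8*, *Hist1h4i*, *Pusl1*, *Msrb2*, *Rprm* and *Igfbp3*. *Igfbp3*, which encodes an IGF-binding protein, was at 3.34, 3.16, 2.56 and 3.86 CPM in null and at 7.85, 6.90, 12.3 and 8.16 CPM in WT libraries (-1.44 ± 0.21 SE, adjusted p = 0.00231). *Hist1h4i*, a histone gene, was at 11.3 to 16.1 CPM in null and at 33.0 to 59.2 CPM in WT libraries (-1.87 ± 0.21, adjusted p = 0.00335). Of the 15 named genes with an adjusted p under 0.05, 12 kept it in all 16 alternatives, including the rule of over 50 cells per library, which left the E9.5 data unchanged. The exceptions were *Stat3*, *Dph7* (11 of 16, lost without null B, null D, WT B, WT C or WT D, adjusted p up to 0.0918) and *Rprm* (10 of 16, adjusted p up to 0.161, lost without null B, null C, WT A, WT B or WT D and with the tdTomato-carrying WT cells kept).

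**Figure D4:**
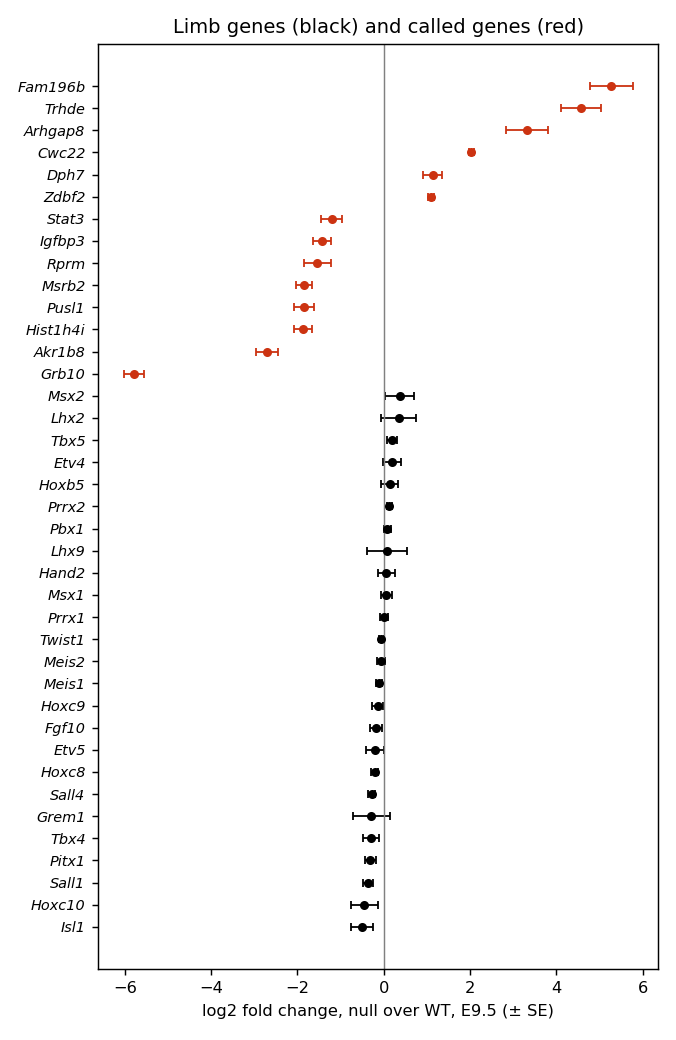
Log2 fold change of null over WT limb mesoderm at E9.5 with its SE, for the 14 called genes (red) and for the limb field and forelimb or hindlimb genes (black). Called genes run from -5.79 (*Grb10*) to 5.27 (*Fam196b*), and the limb genes lie between -0.50 (*Isl1*) and 0.37 (*Msx2*).

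Of the genes with a genotype difference at E9.5, 5 were also read in the sets of limb cells, *Igf2*, *Cwc22*, *Zdbf2*, *Grb10* and *Stat3*. *Igf2* was at 492 to 577 CPM in null and 251 to 348 CPM in WT cells with *Tbx5* only, and at 484 to 626 CPM and 274 to 318 CPM in cells with *Tbx4* or *Pitx1* only. *Cwc22* was at 143 to 183 CPM in null and 38.0 to 52.3 CPM in WT *Tbx5* cells. *Grb10* was at 0.857 to 5.72 CPM in null and 235 to 258 CPM in WT *Tbx5* cells, and at 2.93 to 30.4 CPM and 342 to 418 CPM in the other set. *Zdbf2* was at 101 to 131 CPM in null and 50.6 to 62.5 CPM in WT *Tbx5* cells. *Stat3* overlapped in the *Tbx5* cells, at 1.72 to 4.04 CPM in null and 3.65 to 8.43 CPM in WT, and did not in the other set, at 0.563 to 2.93 and 3.47 to 4.55 CPM. The other genes named here did not overlap between genotypes in either set.

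The genotype effect at E9.5 was also compared between limb mesoderm and 2 other mesenchymal labels of the same libraries, Sclerotome and Branchial arch neural crest. Of 11356 genes none (0) had an effect that differed from sclerotome, the cartilage-forming part of the somite, in edgeR's test (465, or 4.09%, at an unadjusted p under 0.05, and 1 call with DESeq2). Of 10961 genes none (0) differed from the branchial arch cells (452, or 4.12%, unadjusted, and 1 call with DESeq2). The difference in effect on the log2 scale was -0.06 ± 0.08 (SE) for *Cwc22*, 0.09 ± 0.09 for *Igf2* and 0.09 ± 0.41 for *Grb10* against sclerotome. For *Igfbp3* it was -1.26 ± 0.35 (unadjusted p = 0.00151, adjusted p = 0.996).

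At E8.5 the 2 null libraries stood apart from each other. *Grb10* was at 3.08 CPM in null A and at 302 CPM in null B, against 250 and 254 CPM in WT. *H19* was at 200 CPM in null A and 5.21 CPM in null B, against 567 and 522 CPM in WT. In null B, *Grb10* was high in the 11 limb cells with a tdTomato UMI (330 CPM) and in the 6 without (255 CPM). The 2 libraries agreed on *Igf2*, at 474 and 493 CPM against 257 and 250 CPM in WT (log2 fold change 0.95, adjusted p = 1.71e-05), on *Cwc22*, at 115 and 155 CPM against 70.04 and 70.61 CPM, and on *Zdbf2*, at 114 and 85.1 CPM against 44.3 and 61.5 CPM.

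In all, 16 of 8612 genes were called at E8.5 (0.186%), 9 higher (0.105%) and 7 lower (0.0813%). Without the fold threshold 24 passed (0.279%), 15 of them higher (0.174%). DESeq2 called 0 (58 at an unadjusted p under 0.05, against 321, or 3.73%, in edgeR). Leaving out null A gave 33 calls, null B 37, WT A 14 and WT B 28. Of 18 named genes with an adjusted p under 0.05, *Igf2* alone kept it in all 12 alternatives. Genes with low levels made up much of the calls, such as the zinc finger genes *Zfp984*, *Zfp985* and *Zfp979*, close relatives whose reads could be shared. *Zfp984* was at 10.9 and 19.1 CPM in null and at 1.21 and 3.27 CPM in WT libraries. The others called higher were *AC132325.2*, *Fry*, *Cisd3*, *Phtf2*, *Casc4* and *Zdbf2*. Called lower were *Akr1e1*, *Eef2k*, *Pusl1*, *Hist1h4i*, *Myo1c*, *Meox1* and *Hist1h2bj*. *Hist1h4i* (11.3 and 13.9 CPM in null, 45.5 and 45.1 CPM in WT libraries) and *Pusl1* (6.84 and 17.4 CPM against 36.6 and 41.2 CPM) were called lower at both stages. *Meox1*, a somite gene, was at 9.92 and 3.47 CPM in null and at 29.4 and 19 CPM in WT limb cells. The 11 somite and muscle precursor markers summed to 15.1 and 6.94 CPM in null and 40.3 and 22.9 CPM in WT limb cells. The sums of heart (40.7 and 24.3 against 50.7 and 85.0 CPM), neural (33.5 and 29.5 against 42.3 and 35.3), face mesenchyme (59.9 and 46.9 against 74.1 and 65.4) and blood markers (10.9 and 3.47 against 12.1 and 17.0) were also lower in both null libraries, and those of the other 5 lists overlapped. With 2 libraries against 2, 17.8% of all genes were lower and 14.5% higher in null cells without overlap. The part of these markers in the E8.5 differences was not tested. None (0) of the 16 limb field genes tested was called, and *Tbx5* differed by -0.11 ± 0.21 (SE, adjusted p = 0.998). At an unadjusted p under 0.05 there was 1 of them, *Etv4*, higher in null cells by 0.77 ± 0.28 without overlap of libraries (SE, unadjusted p = 0.00938, adjusted p = 0.883).

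**Figure D5:**
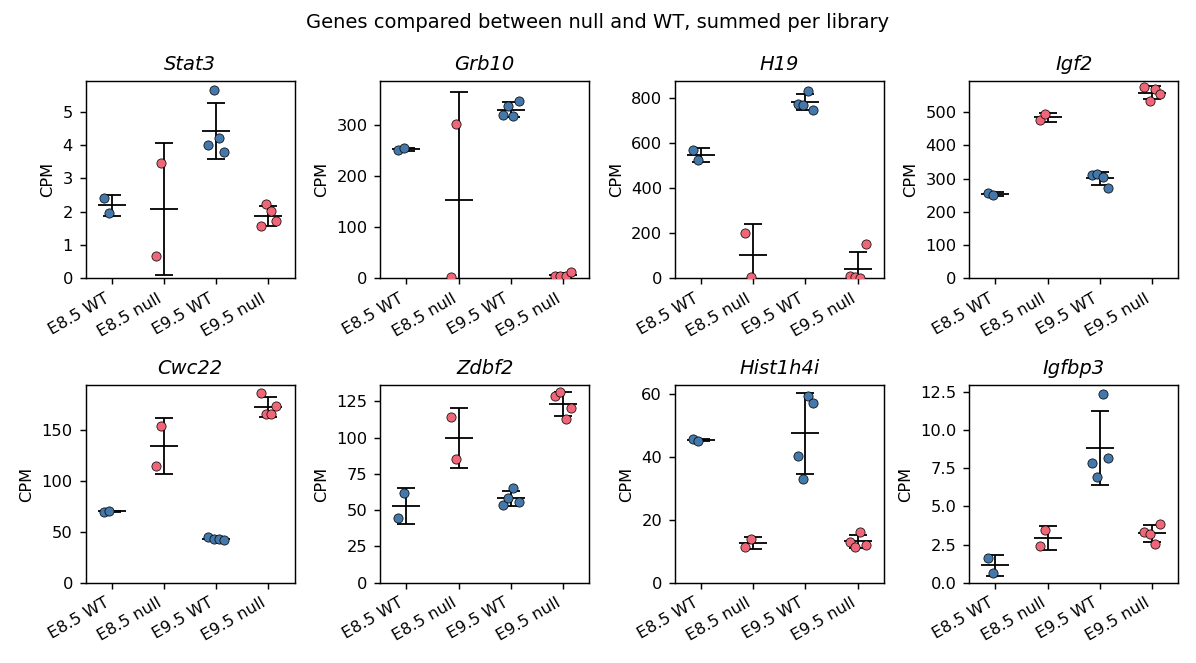
Levels of 8 genes (CPM of UMIs summed over limb mesoderm cells) by stage and genotype, with each point a library and the bar and whiskers the mean and SD. *Igf2*, *Cwc22* and *Zdbf2* are higher in every null library of each stage than in every WT library of it, *Hist1h4i* is lower, and for *Grb10* the E8.5 null libraries lie at 3.08 and 302 CPM.

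The change of the genotype effect between stages was called for 1 of 10812 genes (0.00925%), *Cwc22*, with 388 (3.59%) at an unadjusted p under 0.05. Its effect was larger at E9.5 by 1.15 ± 0.15 (SE) on the log2 scale (adjusted p = 0.00138). Its WT level fell from 70.3 ± 0.407 (SD, n = 2) to 43.0 ± 1.32 CPM (SD, n = 4) and its null level went from 135 ± 27.7 to 173 ± 9.95 CPM. The call was lost without E8.5 WT A, where 0 genes were called, and without E8.5 null A, where 2 other genes were. *Igf2* and *Zdbf2* differed between stages by -0.03 ± 0.11 and 0.06 ± 0.19 (SE, adjusted p = 1.000 for both).

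Of the summed markers of other cell types, the blood markers alone did not overlap between genotypes at E9.5. Over 9 endothelial markers the sum was 26.3 to 33.2 CPM in null and 27.2 to 35.1 CPM in WT limb cells, against 63.7 to 93.5 CPM in other cells. The 8 blood markers summed to 0.548 to 1.07 CPM in null and 1.88 to 10.6 CPM in WT limb cells, without overlap, and to 5.07 to 13.2 and 49.8 to 152 CPM in the other null and WT cells. None (0) of these 8 markers was abundant enough to be tested, and haemoglobin genes had been left out by name. The sums of the somite (15.2 to 44.1 CPM in null, 19.2 to 55.4 CPM in WT limb cells), neural (65.8 to 114 and 72.7 to 101), heart (17.8 to 31.3 and 22.0 to 38.0), ectoderm (34.4 to 72.7 and 41.8 to 93.1), neural crest (33.4 to 43.7 and 31.4 to 44.4), splanchnic (56.4 to 107 and 73.4 to 105), intermediate mesoderm (15.3 to 20.6 and 13.0 to 22.4) and face mesenchyme markers (117 to 192 and 124 to 176 CPM) overlapped between genotypes. Cell cycle (20 S-phase and 20 G2/M genes), glycolysis (15 genes) and oxidative phosphorylation lists (18 genes tested) had medians between -0.02 and 0.12 on the log2 scale between genotypes at either stage. They had 0 calls, which is near the background of 0.132% and 0.186% of all genes. *Lyrm7* of the oxidative phosphorylation list was not tested between genotypes. At E8.5 it had 3 UMIs in null and 16 in WT limb cells, 4.65-fold lower in null cells (counting interval 1.33 to 24.9). These UMIs were pooled over the libraries of a genotype, so the interval leaves out the spread between libraries. At an unadjusted p under 0.05 at E9.5 there were 3 glycolysis genes, all higher in null cells (*Pfkp*, *Gpi1* and *Tpi1*), 3 oxidative phosphorylation genes, 1 higher and 2 lower, and 1 S-phase gene, lower. *Pfkp* differed by 0.95 (unadjusted p = 0.00329, adjusted p = 0.309).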

How the data were processed

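The authors mapped reads to mm10 with Cell Ranger and deposited raw UMI counts per gene and cell, which carry no normalization. Their deposited table gives for each cell the percent of mitochondrial UMIs, which the authors computed from the raw counts. It also holds the authors' doublet calls (scds), the label, the label score, a fraction of the 25 nearest atlas cells as the authors deposited it, and the atlas stage in days. The 3395 doublet calls carry no label and were left out, as were 596 WT-gate cells with a tdTomato UMI. Columns of values matched to no library numbered 0.

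Library names match no sample title, so libraries were grouped by stage and gate, without the study's embryo pool. UMI counts were summed per library over limb cells (libraries with more than 15). They were tested with edgeR 4.0.16 (R 4.3.3, filterByExpr, TMM, robust quasi-likelihood, Benjamini-Hochberg over all genes), with DESeq2 1.42.0 as an alternative. A call needed an adjusted p under 0.05 and a log2 fold change beyond 1 in either direction. By name, 8176 of 29453 genes were left out (Gm, Rik, ribosomal, mitochondrial, haemoglobin, *Xist*, *Tsix*, tdTomato and Y-linked genes). Imprinted genes, which the study left out, were kept. SE is the absolute log2 fold change over the square root of F. Shares used exact permutation tests (scipy 1.17.1). Folds against groups at 0 UMIs are bounds at 3 UMIs per group. Intervals and limits cover counting error only.

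Named genes were, among calls whose libraries did not overlap, the 8 that rose and the 8 that fell most per comparison, called list members, the limb field and forelimb or hindlimb genes, and *Stat3*. *Zdbf2* at E8.5, *Cwc22* at E8.5, *H19*, *Igf2*, *Impact* and *Igfbp3* between labels, *Socs3*, *Cish*, *Il6st*, *Aldh1a2* and *Shh* were named after their values were seen, as were the genes given for cell sets and markers. The same holds for *Junb*, and for *Lyrm7* between genotypes. Members and lists were chosen with earlier results of these data known. Alternatives included other normalizations, filters, tdTomato rules and each library left out. Coordinates and sequences are from GRCm38 and RefSeq (GRCm38.p6).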

Additional observations from a re-analysis of the deposited data

Results flagged for a closer look

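The *Cwc22* genotype effect differed between stages by the interaction test (1.15 on the log2 scale). For single libraries at E9.5, 146 groups of 4 values were examined for a value far from the other 3, and 10 (6.85%) had one, where chance gives about 1 in 20. In null libraries these were *Grb10* in null D (12.2 CPM, others 4.48 to 4.75), *H19* in null D (154 CPM, others 4.20 to 10.3), *Fam196b* in null C (2.56 CPM, others 5.96 to 6.46), *Trhde* in null A (5.18 CPM, others 3.47 to 3.64), *Prrx2* in null A (281 CPM, others 313 to 315) and *Twist1* in null D (569 CPM, others 603 to 608). In WT libraries they were *Ets1* in WT C (30.2 CPM, others 21.1 to 22.4), *Msx2* in WT D (25.3 CPM, others 39.9 to 42.4), *Postn* in WT B (6.90 CPM, others 12.3 to 13.4) and the share of thinned cells with neither *Tbx5* nor *Tbx4* or *Pitx1* in WT D (28.7%, others 36.7% to 38.0%). Of the 10 values, 3 were in null D (*Grb10*, *H19* and *Twist1*).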

How the results depend on the processing

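No paired analysis was possible because the library names match no sample title, which ties no library to an embryo pool. Tests between limb labels were not run, since Forelimb held 2 cells; the comparisons with Sclerotome and Branchial arch neural crest were chosen after seeing the data. The cause of the changes below was not tested except where fewer libraries or another filter sets them.

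Counts of called genes changed as follows. With DESeq2, E8.5 gave 0 in place of 16, and the comparisons with Sclerotome and Branchial arch neural crest gave 1 each in place of 0. One fit over all stages gave 3 at E8.5. Without null cells that lack a tdTomato UMI, or with over 50 cells per library, E8.5 gave 37; both leave null A alone against 2 WT libraries. Without the filter on low counts the genotype comparisons gave 27 at E8.5 and 27 at E9.5, Sclerotome 15 and Branchial arch neural crest 2. With no gene left out by name they gave 17 at E8.5 and 21 at E9.5 (9 higher and 12 lower). Without the fold threshold E9.5 gave 52 and the WT stage comparison 1412, of which 43.1% in place of 68.1% were higher. Leaving out 1 library gave 14 to 37 at E8.5, 13 to 22 at E9.5 (22 without WT C), 195 to 498 for the WT stage comparison, 0 to 2 for genotype by stage, 0 to 1 for Sclerotome and 0 to 3 for Branchial arch neural crest. A group left with 1 library is assumed to vary like the others.

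The E9.5 abundance (-0.03) became 0.0099 with DESeq2 and ran from -0.18 to 0.11 on leaving out 1 library. The stage difference, null minus WT, ran from -0.0554 to 0.0270 days at E8.5 and from -0.0115 to 0.0274 days at E9.5, and was 0.0014 days at E8.5 without null cells lacking tdTomato.

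Signs also turned for genes that were not called. At E8.5 (log2) DESeq2 gave *Sall1* 0.048, *Hoxc8* -0.21 and *Hoxc9* -0.18. Without null cells lacking tdTomato, *Tbx5* was 0.067, *Prrx1* 0.10, *Prrx2* 0.10, *Msx1* -0.10, *Etv5* 0.16, *Twist1* -0.095 and *Isl1* -0.36. With over 50 cells they were 0.0099, 0.12, 0.071, -0.12, 0.12, -0.087 and -0.23. Leaving out 1 E8.5 library gave *Tbx5* -0.57 to 0.19, *Prrx1* -0.28 to 0.12, *Prrx2* -0.41 to 0.071, *Hand2* -0.39 to 0.29, *Msx1* -0.12 to 0.43, *Msx2* -0.37 to 0.14, *Etv5* -0.89 to 0.47, *Meis1* -0.32 to 0.13, *Sall1* -0.20 to 0.32, *Grem1* -2.13 to 0.91, *Twist1* -0.087 to 0.24, *Isl1* -0.23 to 0.75, *Hoxc8* -3.66 to 0.68, *Hoxc9* -2.46 to 0.39 and *Grb10* -6.32 to 0.30. Leaving out 1 E9.5 library gave *Prrx1* -0.090 to 0.060, *Hand2* -0.071 to 0.19, *Msx1* -0.054 to 0.16, *Lhx9* -0.19 to 0.34 and *Etv4* -0.0080 to 0.33. *Hand2* between stages in WT ran from -0.13 to 0.53.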
